A study of Mus musculus with 6 samples.

Results

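The transcripts described here encode enzymes that modify collagen. They comprise 5 lysyl oxidases (Lox and Loxl1 to Loxl4), 3 alpha subunits of prolyl 4-hydroxylase (P4ha1, P4ha2 and P4ha3) and the lysyl hydroxylases Plod1 and Plod2. The 10 genes were taken by symbol from a table of 24421 genes, and all 10 had enough counts to be tested. RNA was sequenced from engineered muscle of the mouse myoblast line C2C12, cast as cells in a type I collagen gel around titanium tendons and differentiated in horse serum. The groups were 3 constructs given 100 ng/mL TNF-alpha, an inflammatory cytokine, for 72 h and 3 given vehicle (phosphate-buffered saline) over the same time. The labels call the constructs of a group biological replicates. All constructs come from a single established line, and no label says that they came from separate cell batches. The tests thus weigh differences against the spread among these constructs, which may be technical. Libraries held 81713008 to 93533748 counts each, and a member had between 452 and 171989 counts in a library.

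Collagen chains are modified first inside the cell and then outside it. In the endoplasmic reticulum, prolyl 4-hydroxylase makes the hydroxyproline that holds the triple helix together, and lysyl hydroxylases make the hydroxylysine that carries sugars and forms the more stable cross-links. Both use iron, 2-oxoglutarate, oxygen and ascorbate. After secretion, the copper-dependent lysyl oxidases turn lysine and hydroxylysine side chains into aldehydes, which join neighbouring collagen or elastin molecules. In skeletal muscle these enzymes shape the stiffness of the connective tissue around the fibres.

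All 10 members changed. Levels rose for 7 genes (Lox, Loxl2, Loxl4, P4ha1, P4ha2, Plod1 and Plod2) and fell for 3 (Loxl1, Loxl3 and P4ha3) by edgeR's quasi-likelihood test at an adjusted p under 0.05. The background was high. Of 15792 genes tested, 55.5% passed the same threshold, 27.6% upward and 27.9% downward. A change of at least 2-fold past the test was met by 6 members (Lox, Loxl1, Loxl2, Loxl4, P4ha2 and Plod2) and by 17.9% of all tested genes. The libraries of the groups did not overlap for any of the 10 members, against 64.5% of all tested genes. The median log2 fold change of the members was 1.00 beside 0.00481 over all tested genes. In whole constructs, fewer cells of a type and less RNA per cell cannot be told apart.

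Lox encodes the founding lysyl oxidase, a secreted amine oxidase of collagen and elastin (GRCm38 chromosome 18, 52516067 to 52529867, minus strand). It was the most abundant member, in raw level and per length. Its levels in CPM (counts scaled to a common library size) were 509, 526 and 551 in the vehicle libraries and 1841, 1746 and 2036 in the TNF-alpha libraries. Every TNF-alpha library stood above every vehicle library by a wide margin, and the vehicle libraries lay close together. The mean went from 529 ± 20.96 to 1874 ± 148 CPM (mean ± SD, n = 3), a 3.54-fold rise (log2 fold change 1.83 ± 0.08 SE, adjusted p = 7.78e-07).

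**Figure D1:**
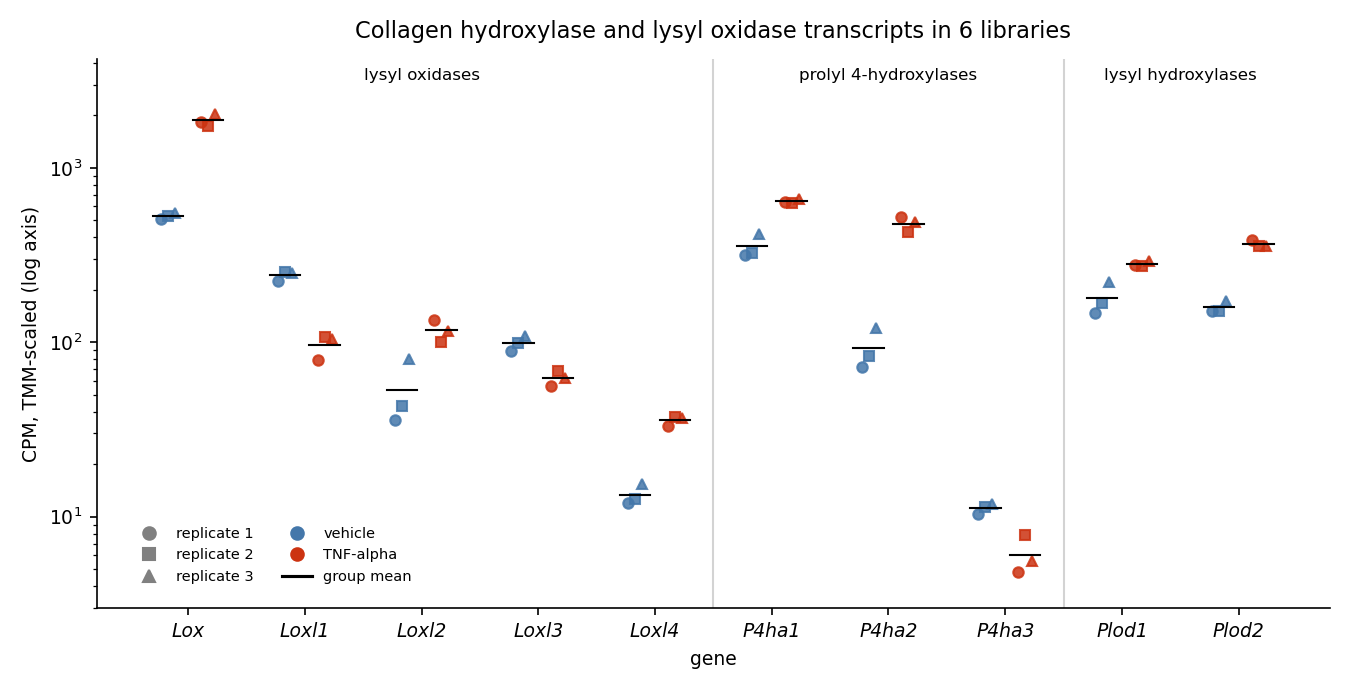
Level of each of the 10 genes in CPM (TMM-scaled, log axis) in the 3 vehicle and 3 TNF-alpha libraries; marker shapes give the replicate number and black lines the group means. The groups do not overlap for any gene. Vehicle replicate 3 is the highest vehicle library for 9 of the 10 genes, with the largest folds over the others for Loxl2, P4ha2, Plod1 and P4ha1.

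Loxl1 and Loxl3 moved the other way. Loxl1, a lysyl oxidase known for its role in elastic fibre upkeep (chromosome 9, 58287738 to 58313186, minus strand), stood at 224, 254 and 248.5 CPM in the vehicle libraries. The TNF-alpha libraries had 78.8, 107 and 104 CPM, all well under the lowest vehicle library. Its 2.51-fold fall took the mean from 242 ± 15.9 to 96.6 ± 15.5 CPM (log2 fold change -1.33 ± 0.12 SE, adjusted p = 4.33e-05) and was the largest fall among the members. Loxl3 (chromosome 6, 83034173 to 83052562, plus strand), a lysyl oxidase with scavenger receptor domains, had 89.6, 99.5 and 108 CPM with vehicle and 56.3, 68.5 and 62.7 CPM with TNF-alpha. The groups were apart, though by less than for Loxl1, and the fall was 1.58-fold (-0.66 ± 0.09 on the log2 scale, adjusted p = 3.52e-04). The exons of Loxl3 share 535 bases with those of Htra2, a mitochondrial protease gene on the opposite strand. Htra2 was at 58.6 ± 1.86 and 59.7 ± 2.39 CPM (log2 fold change 0.03 ± 0.06, adjusted p = 0.728), and the use of strand in counting is not given in the sources used here.

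Loxl2 and Loxl4, both of which also carry scavenger receptor domains, rose with Lox. Loxl2 (chromosome 14, 69609068 to 69695834, plus strand) had 35.9, 43.1 and 80.3 CPM in the vehicle libraries and 135, 99.9 and 116 CPM in the TNF-alpha libraries. Vehicle replicate 3 lay closer to the lowest TNF-alpha library than to the other vehicle libraries, though the groups did not overlap. The rise was 2.20-fold (log2 fold change 1.14 ± 0.32 SE, adjusted p = 0.0269). This was the least secure change among the members. By edgeR, the adjusted p became 0.0575 or 0.0777 when vehicle replicate 1 or 2 was left out. It became 0.0732 or 0.0673 when TNF-alpha replicate 1 or 3 was left out, and 0.0673 when low genes were not filtered. When vehicle replicate 3 was left out, the log2 fold change was 1.56 (adjusted p = 8.86e-05), and over the 14 alternatives the adjusted p ranged from 8.86e-05 to 0.0777. Loxl2 had decimal counts in all 6 libraries, as did Plod2, and P4ha1 had them in 5. The microRNA gene Mir6950, which overlaps it by 7 exonic bases, had at most 239 counts in a library.

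Loxl4 (chromosome 19, 42593982 to 42612813, minus strand) was the least abundant lysyl oxidase. It had 12.02, 12.6 and 15.4 CPM with vehicle and 33.2, 37.2 and 36.5 CPM with TNF-alpha. Each TNF-alpha library had over 2 times the level of any vehicle library, and the fitted rise was 2.67-fold (log2 fold change 1.42 ± 0.10 SE, adjusted p = 9.77e-06). Loxl4 is the only lysyl oxidase whose promoter window was at hand. The RefSeq window (GRCm38.p6, chr19:42612757-42613056, minus strand, 250 bases before to 50 bases after the annotated start) is shown because it holds 1 match to the NF-kB consensus, the motif of the main transcription factor downstream of TNF receptors. The match is in capitals, at -143 to -134 from the start. Of 32851 windows of the same length, 8.46% held such a match on either strand. The match is a description of the letters, not a shown binding site.
Loxl4: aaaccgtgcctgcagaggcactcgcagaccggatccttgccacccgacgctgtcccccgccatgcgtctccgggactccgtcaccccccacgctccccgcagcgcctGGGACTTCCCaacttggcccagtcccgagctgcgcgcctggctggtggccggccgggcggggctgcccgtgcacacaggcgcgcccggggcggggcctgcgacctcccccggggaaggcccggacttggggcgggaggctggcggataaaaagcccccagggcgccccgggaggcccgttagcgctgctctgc

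The prolyl 4-hydroxylase subunits split, with the abundant pair higher and the scarce one lower. P4ha2 (chromosome 11, 54100095 to 54131665, plus strand), an alpha subunit prominent in cartilage and bone, showed the largest change of all 10 genes. Vehicle libraries had 72.1, 83.9 and 121 CPM, and TNF-alpha libraries had 524, 426 and 488 CPM. The lowest TNF-alpha library was more than 3 times as high as the highest vehicle library. The mean went from 92.4 ± 25.6 to 479 ± 49.4 CPM, a 5.19-fold rise (log2 fold change 2.37 ± 0.20 SE, adjusted p = 8.69e-05). P4ha1, the subunit of most cell types (chromosome 10, 59323296 to 59373304, plus strand), had 318, 325 and 419 CPM with vehicle and 638, 630 and 663 CPM with TNF-alpha. The TNF-alpha libraries were tightly grouped and above all vehicle libraries, and the rise was 1.82-fold (0.86 ± 0.11 on the log2 scale, adjusted p = 1.99e-04). P4ha3 (chromosome 7, 100285520 to 100319699, plus strand), the remaining alpha subunit, had 10.4, 11.3 and 11.7 CPM with vehicle. It fell to 4.84, 7.80 and 5.55 CPM with TNF-alpha, 1.84-fold lower (-0.88 ± 0.17, adjusted p = 0.00235), and TNF-alpha replicate 2 was the highest of its group.

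The RefSeq promoter windows of these 3 subunit genes are printed below. Capitals mark each match to ACGTG or GCGTG on either strand (CACGT or CACGC as read here), the core bases of the element bound by hypoxia-inducible factors, which are known activators of P4ha1, P4ha2, Plod2 and Lox. The windows run 250 bases before to 50 after the RefSeq start on GRCm38.p6. They lie at chr10:59323046-59323345 (plus strand) for P4ha1, chr11:54100674-54100973 (plus strand) for P4ha2 and chr7:100285270-100285569 (plus strand) for P4ha3. The P4ha2 window lies wholly inside the gene span given above, which begins upstream at 54100095. Bases around that upstream start were not searched.
P4ha1: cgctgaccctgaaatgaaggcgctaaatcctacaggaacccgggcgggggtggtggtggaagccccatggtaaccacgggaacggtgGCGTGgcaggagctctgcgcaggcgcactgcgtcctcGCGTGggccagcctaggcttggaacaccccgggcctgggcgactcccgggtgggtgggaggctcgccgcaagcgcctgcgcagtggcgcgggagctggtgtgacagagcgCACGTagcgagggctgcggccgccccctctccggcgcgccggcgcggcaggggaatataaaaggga
P4ha2: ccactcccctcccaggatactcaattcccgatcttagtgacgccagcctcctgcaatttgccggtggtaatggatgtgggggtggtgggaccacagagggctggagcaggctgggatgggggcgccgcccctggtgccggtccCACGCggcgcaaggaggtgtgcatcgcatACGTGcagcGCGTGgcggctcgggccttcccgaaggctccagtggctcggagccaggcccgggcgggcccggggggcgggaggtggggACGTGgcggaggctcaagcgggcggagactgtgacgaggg
P4ha3: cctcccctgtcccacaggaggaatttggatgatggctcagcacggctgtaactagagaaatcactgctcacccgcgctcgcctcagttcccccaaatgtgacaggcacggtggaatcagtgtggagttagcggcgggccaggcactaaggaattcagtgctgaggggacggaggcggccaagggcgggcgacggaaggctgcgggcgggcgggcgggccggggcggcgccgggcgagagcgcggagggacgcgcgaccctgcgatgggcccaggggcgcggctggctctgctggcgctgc

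The P4ha1 window held 3 separate matches, at -163, -126 and -16, and the P4ha2 window 4, at -107, -78, -69 and 11, counted from the first base of each match to the start. The P4ha3 window held 0. Among all 32851 windows 43.8% held at least 1 match, so a window with 0 was the commoner case. No share was computed for windows with 3 or 4 matches. A match describes the letters, not a shown binding site, and its part in the direction of change was not tested. The Plod1 and Loxl4 windows held 2 and 1. The NF-kB consensus was met once in the P4ha1 window and not in those of P4ha2, P4ha3 or Plod1, and the AP-1 motif TGANTCA in none of the 5, against 7.81% of all windows. Windows were matched for 5 of the 10 members.

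Both lysyl hydroxylases rose, Plod2 by more. Plod2 encodes the enzyme that hydroxylates the lysines of collagen telopeptides (chromosome 9, 92542223 to 92608428, plus strand). It had 152, 152 and 173 CPM in the vehicle libraries and 388, 357 and 354 CPM in the TNF-alpha libraries, with each group tightly clustered. Its rise was 2.31-fold (log2 fold change 1.21 ± 0.08 SE, adjusted p = 4.07e-06). Plod1, which acts on lysines within the helix (chromosome 4, 147909753 to 147936767, minus strand), had 147, 168 and 223 CPM with vehicle and 277, 272 and 294 CPM with TNF-alpha. The groups stayed apart but vehicle replicate 3 came near the TNF-alpha libraries, and the 1.57-fold rise was the smallest among the members that rose (0.65 ± 0.14, adjusted p = 0.00598). Plod3, the remaining family member, is not among the 10 genes and was named after its values were seen. It rose 1.33-fold, from 110 ± 7.90 to 147 ± 0.866 CPM (0.41 ± 0.06, adjusted p = 7.10e-04).

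Vehicle replicate 3 stood apart in these genes. It was the highest vehicle library for 9 of the 10 members, among them all 7 that rose, whereas it was the highest for 36.6% of all tested genes. Its level relative to the mean of vehicle replicates 1 and 2 was 2.03-fold for Loxl2, 1.55-fold for P4ha2, 1.41-fold for Plod1 and 1.30-fold for P4ha1, and 1.06-fold for Lox. A list of 14 target genes of hypoxia-inducible factors moved with it. Their summed level was 3792 and 3964 CPM in vehicle replicates 1 and 2, 6151 CPM in vehicle replicate 3, and 11366 to 12057 CPM in the TNF-alpha libraries. In 11 of these 14 genes vehicle replicate 3 was the highest vehicle library. In the other gene lists described below, the share of such genes ran from 10% to 50%. The list of other 2-oxoglutarate enzymes and ascorbate carriers, at 50%, summed to 499, 568 and 668 CPM in vehicle replicates 1, 2 and 3. The part of any of these lists in the members' levels was not tested. Without vehicle replicate 3 the counts of members were again 7 risen and 3 fallen, and the log2 fold change was 2.61 for P4ha2, 1.00 for P4ha1 and 0.83 for Plod1.

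Per length of exon, the order of the members changed between the groups. On the scale of CPM per kilobase of joined exons, the vehicle libraries ranked Lox first at 111 ± 4.39, then P4ha1 at 86.0 ± 13.8 and Loxl1 at 73.5 ± 4.83 (SD, n = 3). Plod2, Plod1, Loxl3, P4ha2, Loxl2, P4ha3 and Loxl4 followed, from 29.4 ± 2.25 down to 3.17 ± 0.424. Neighbours whose vehicle libraries overlapped were Plod2 and Plod1, Plod1 and Loxl3, P4ha2 and Loxl2, and P4ha3 and Loxl4. With TNF-alpha, Lox was first at 392 ± 30.9 and P4ha1 second at 156 ± 4.21, ahead of P4ha2 at 76.8 ± 7.92 and Plod2 at 67.9 ± 3.48, whose libraries overlapped. On this scale P4ha2 was at rank 7 with vehicle and rank 3 with TNF-alpha, and Loxl1 was at rank 3 and rank 6, where it overlapped Loxl2. P4ha3 was last at 1.93 ± 0.494. Part of this order depends on the length used. Per kilobase of the longest transcript, an alternative added after seeing the data, P4ha2 was at rank 6 with vehicle, at 30.2 ± 8.37, and overlapped Loxl3. With TNF-alpha it was at 157 ± 16.2 and P4ha1 at 159 ± 4.28, with overlapping libraries, so these subunits had no clear order, and P4ha2 stood clear of Plod2 at 100.01 ± 5.12. Plod1 and Plod2 changed places in the vehicle libraries, again with overlap, and P4ha3 and Loxl4 no longer overlapped there.

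Within the lysyl oxidases, the transcript pool became dominated by Lox. As a share of the summed CPM per kilobase of the 5 genes, Lox made up 52.4%, 50.1% and 49.6% in the vehicle libraries and 84.8%, 83.0% and 84.96% in the TNF-alpha libraries. Loxl1 went from 33.6% ± 1.36 to 6.31% ± 1.05 and Loxl3 from 9.83% ± 0.264 to 2.93% ± 0.389 (SD, n = 3). Loxl4 made up 1.45% ± 0.109 and 1.82% ± 0.160. Loxl2 had overlapping shares of 4.42% ± 1.71 and 4.66% ± 0.720 (exact two-sided permutation p = 0.8). The difference of 0.234 percentage points ranged from -0.346 to 1.21 with 1 library left out. Each of the other 4 shares had the exact permutation p of 0.1 that is the smallest 3 against 3 libraries can give (0.111 adjusted over 10 shares), so none can pass a threshold of 0.05.

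Among the prolyl 4-hydroxylase subunits, P4ha2 went from 12.5%, 14.0% and 15.5% of the pool with vehicle to 34.9%, 30.5% and 32.4% with TNF-alpha. P4ha1 made up 82.5% ± 1.22 and 66.6% ± 1.98, and P4ha3 went from 3.45% ± 0.403 to 0.829% ± 0.249. For the lysyl hydroxylases, Plod2 made up 52.9% ± 3.53 of the pair with vehicle and 62.0% ± 1.76 with TNF-alpha, with Plod1 as the rest. With Plod3 counted in the family, an alternative added after seeing the data, Plod1 held 32.7% ± 3.15 and 29.3% ± 1.24, Plod2 36.8% ± 1.69 and 47.9% ± 1.60, and Plod3 30.5% ± 1.47 and 22.9% ± 0.514. All 5 shares of the 3 subunits and the pair had an exact two-sided permutation p of 0.1 (0.111 adjusted over 10 shares). The P4ha1 and P4ha2 shares depend on the length used, since P4ha2 has 6239 bases of joined exons but 3060 in its longest transcript. With the longest transcripts, P4ha1 held 71.7% ± 1.94 with vehicle and 50.1% ± 2.29 with TNF-alpha, and P4ha2 24.4% ± 2.303 and 49.1% ± 2.52. In TNF-alpha replicate 1 the P4ha2 share, 51.7%, was then above the P4ha1 share, 47.7%. The P4ha2 difference was 18.6 percentage points with joined exons and 24.7 with the longest transcripts.

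**Figure D2:**
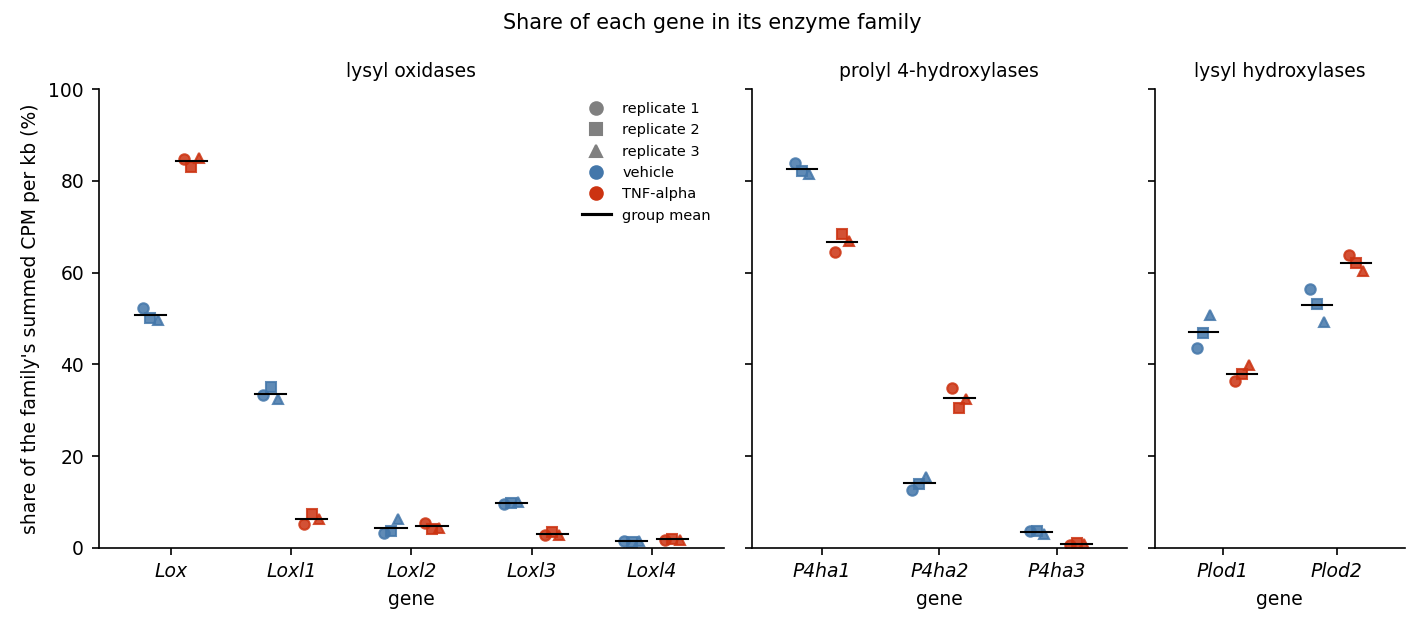
Share of each gene (%) in the summed CPM per kilobase of its enzyme family, by library, with group means as black lines. Lox takes 83.0% to 84.96% of the lysyl oxidase pool in TNF-alpha libraries against 49.6% to 52.4% with vehicle, while the shares of Loxl2 overlap.

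The summed level of each family rose while type I collagen transcripts fell. The summed level of the lysyl oxidases went from 219 ± 14.6 to 465 ± 32.1 CPM per kilobase, that of the prolyl 4-hydroxylase subunits from 104 ± 17.997 to 235 ± 9.81 and that of Plod1 and Plod2 from 55.9 ± 7.97 to 109 ± 3.24. Each had an exact two-sided permutation p of 0.1, the smallest possible. The lysyl oxidase sum rose through Lox, which went from 111 ± 4.39 to 392 ± 30.9 CPM per kilobase. Loxl1 (73.5 to 29.3) and Loxl3 (21.5 to 13.6) fell by more than Loxl2 (9.82 to 21.6) and Loxl4 (3.17 to 8.46) rose. P4ha3 fell within its family, and the lysyl hydroxylase sum leaves out Plod3. Col1a1 and Col1a2, which encode the chains of type I collagen, together had 99.5, 118 and 125 CPM per kilobase with vehicle and 35.2, 42.4 and 45.6 with TNF-alpha. The gel of the constructs supplies type I collagen as protein, which these transcripts do not measure. The log2 ratio of the lysyl oxidases to type I collagen transcripts was 1.03, 0.90 and 0.90 with vehicle and 3.69, 3.38 and 3.46 with TNF-alpha, a difference of 2.57. For the prolyl 4-hydroxylases the mean ratio went from -0.13 ± 0.15 to 2.53 ± 0.21 and for the lysyl hydroxylases from -1.03 ± 0.11 to 1.42 ± 0.23 (exact permutation p = 0.1 for each of the 3, and 0.1 adjusted over them). Set against 5 fibrillar chains (Col1a1, Col1a2, Col3a1, Col5a1 and Col5a2), the differences were 1.49, 1.59 and 1.38 for the lysyl oxidases, prolyl 4-hydroxylases and lysyl hydroxylases. The size of the difference thus depends on the chains chosen. Col5a3, a fibrillar chain that rose from 164 ± 20.98 to 955 ± 205 CPM, was in neither reference. Ratios with it were not computed and would differ by less.

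**Figure D3:**
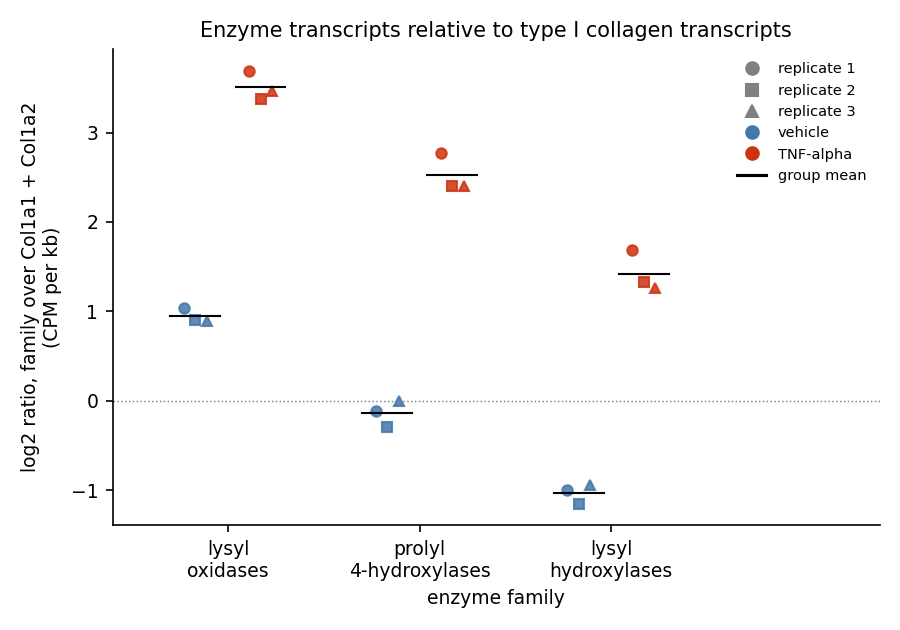
Log2 ratio of each enzyme family's summed CPM per kilobase to that of Col1a1 plus Col1a2, by library, with group means as black lines. In all 3 families the TNF-alpha libraries lie above the vehicle libraries, by 2.57, 2.66 and 2.45 on average for the lysyl oxidases, prolyl 4-hydroxylases and lysyl hydroxylases.

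Genes of the enzymes' substrates moved both up and down. Among the 12 genes of fibrillar collagens and elastin, 4 rose and 6 fell, with 2 short of the threshold (median log2 fold change -0.24). Leaving out 1 library gave 3 or 4 risen and 6 fallen. Col1a2 fell from 901 ± 54.7 to 306 ± 63.6 CPM (-1.56 ± 0.15 SE, adjusted p = 8.11e-05), and Col1a1, named after its values were seen, fell from 273 ± 64.1 to 108 ± 8.65 CPM (-1.34 ± 0.17, adjusted p = 5.11e-04). Col11a1, a chain of minor fibrils in cartilage, had 155 to 376 counts in vehicle libraries and 4 to 12 in TNF-alpha libraries (adjusted p = 8.27e-05). Col5a3, a chain of type V collagen, rose 5.82-fold, from 164 ± 20.98 to 955 ± 205 CPM (2.54 ± 0.18, adjusted p = 2.45e-05).

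Genes that fold and modify collagen alongside the members had 4 rises and 7 falls among 13 tested, with 2 short of the threshold (median log2 fold change -0.25), as against 27.6% risen and 27.9% fallen over all genes. P4hb, which encodes the protein disulfide isomerase that forms the beta subunit of prolyl 4-hydroxylase, rose 1.65-fold, from 1091 ± 45.1 to 1805 ± 76.6 CPM (0.73 ± 0.07 SE, adjusted p = 5.67e-05). It rose together with P4ha1 and P4ha2, at a higher CPM than either. Serpinh1, the collagen chaperone HSP47, fell from 794 ± 35.1 to 528 ± 27.2 CPM (-0.59 ± 0.07, adjusted p = 1.66e-04), and P3h4, a partner of lysyl hydroxylase in the endoplasmic reticulum, fell from 150 ± 5.24 to 113 ± 1.73 CPM (-0.41 ± 0.06, adjusted p = 2.92e-04). Colgalt2 was not tested, with at most 22 counts in a library.

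Procollagen export and trimming was covered by 13 tested genes, of which 4 rose and 6 fell, with 3 short of the threshold (median -0.11). When 1 library was left out, 3 to 5 rose and 6 fell. Pcolce, an enhancer of C-propeptide removal, fell 2.71-fold, from 522 ± 39.4 to 193 ± 10.8 CPM (-1.44 ± 0.08 SE, adjusted p = 2.00e-06). Bmp1, the protease that removes the C-propeptide and also cleaves the Lox precursor, fell from 322 ± 4.22 to 194 ± 3.23 CPM (-0.73 ± 0.06, adjusted p = 1.17e-05), whereas Lox itself rose. Kdelr2, a receptor that returns proteins to the endoplasmic reticulum, rose by 0.30 ± 0.05 (adjusted p = 0.00146).

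Among 10 partners of lysyl oxidases and copper carriers, 2 rose and 4 fell, with 4 short of the threshold (median -0.17). Postn, a matricellular protein that helps Lox activation, fell from 270 ± 82.2 to 29.2 ± 9.57 CPM (-3.21 ± 0.37 SE, adjusted p = 7.49e-04). Fmod, a small proteoglycan that binds collagen and Lox, went from 146 to 379 counts in vehicle libraries to 0, 2 and 5 counts in TNF-alpha libraries (adjusted p = 1.42e-04). Atox1, a copper chaperone, rose from 41.6 ± 1.93 to 63.1 ± 0.663 CPM (0.60 ± 0.06, adjusted p = 4.60e-05). The other that rose, Slc31a1, was not past the test without vehicle replicate 2, vehicle replicate 3 or TNF-alpha replicate 3, which leaves 1 risen. The least secure fall was Fbln5 (-0.44 ± 0.15, adjusted p = 0.0409 by edgeR), whose adjusted p reached 0.112 under the alternatives. Between 3 and 4 genes of the list fell when 1 library was left out.

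Other enzymes that use 2-oxoglutarate, with the ascorbate carriers, formed a list of 8 in which 5 rose and 0 fell, with 3 short of the threshold (median 0.87). With 1 library left out, 4 or 5 of the list rose. By edgeR at an unadjusted p under 0.05 the list held 0 fallen genes, and DESeq2 and limma-voom called 0 fallen as well. Jmjd6, a lysyl hydroxylase of nuclear proteins, rose from 62.1 ± 3.01 to 175 ± 20.1 CPM (1.49 ± 0.09 SE, adjusted p = 2.83e-06). Slc23a2, the ascorbate transporter of most cells, rose 2.46-fold, from 111 ± 0.563 to 274 ± 33.5 CPM (1.30 ± 0.09, adjusted p = 6.91e-06). Of the 14 target genes of hypoxia-inducible factors, 13 rose, 0 fell and 1 (Aldoa, an aldolase gene) was not past the test, with a median of 2.19. With 1 library left out, 11 to 13 of these targets rose. The least secure rise was Car9, at 52.4 ± 56.0 and 286 ± 18.3 CPM (adjusted p = 0.0411 by edgeR). Its adjusted p reached 0.102 under the alternatives. DESeq2 and limma-voom called 0 fallen there too, and at an unadjusted p under 0.05 edgeR gave 0 fallen. Slc2a1, a glucose transporter, rose 9.72-fold from 121 ± 15.9 to 1172 ± 42.5 CPM (3.28 ± 0.11, adjusted p = 1.56e-07), and Ankrd37 rose by 3.25 ± 0.10 (adjusted p = 1.07e-07).

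Targets of TGF-beta, a growth factor known to raise many collagen enzymes, were mixed. Among 9 tested, 5 rose and 2 fell, with 2 short of the threshold (median 0.54). With 1 library left out, 4 to 6 rose and 2 or 3 fell. The least secure rise was Tgfb1i1, at 1.16-fold (adjusted p = 0.0484 by edgeR), whose adjusted p reached 0.152 under the alternatives. Smad7, a feedback inhibitor of the pathway, rose by 1.92 ± 0.09 SE on the log2 scale (adjusted p = 1.17e-06). Acta2, the smooth muscle actin gene, fell from 1461 ± 173 to 267 ± 16.7 CPM (-2.45 ± 0.10, adjusted p = 5.70e-07).

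**Figure D4:**
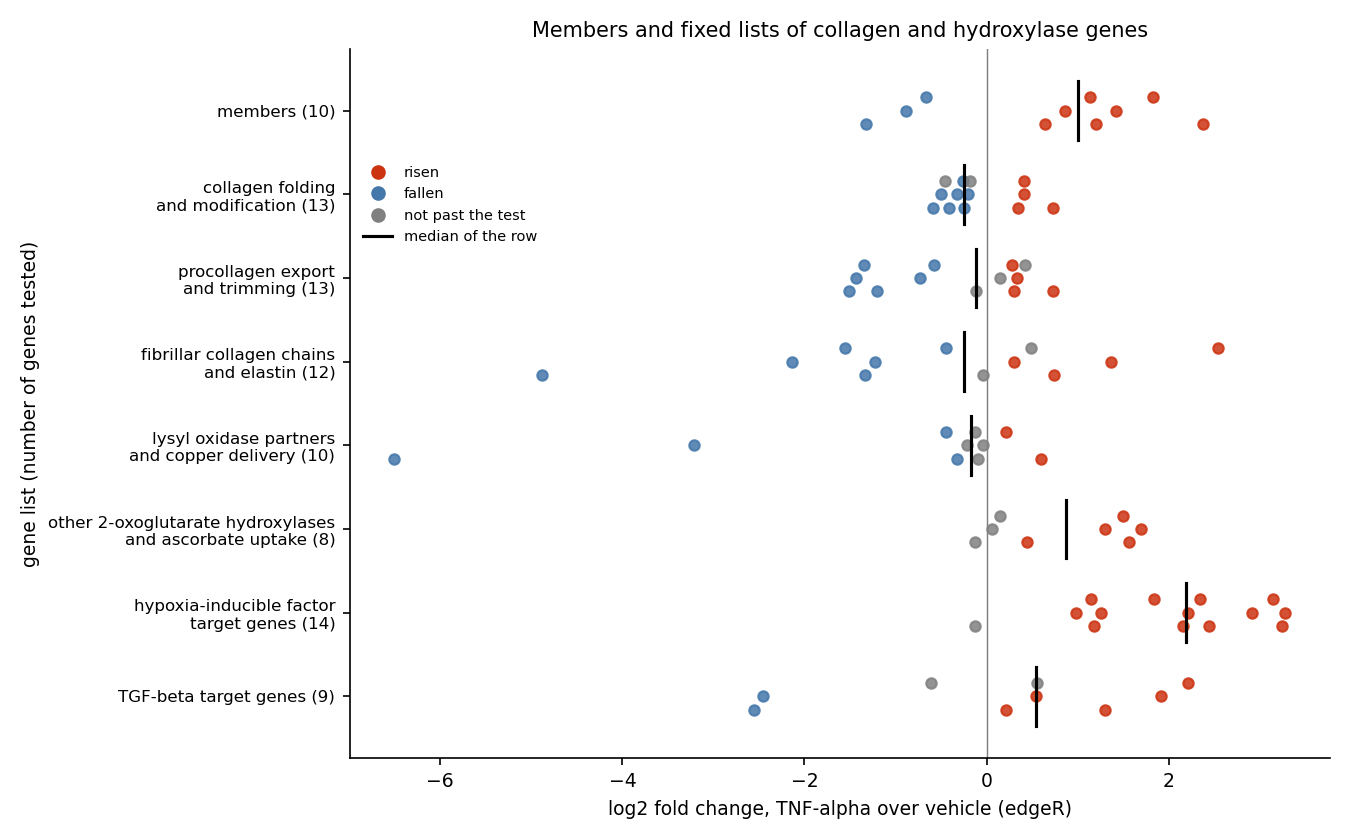
Log2 fold change (TNF-alpha over vehicle, edgeR) of each tested gene in the members and in 7 gene lists, coloured by whether it rose, fell or was not past the test; black lines are the medians. The medians are 1.00 for the members, -0.24 for fibrillar collagen and elastin and 2.19 for targets of hypoxia-inducible factors.

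Markers of the labelled cell type were present, and several markers of other cell types were detected. All 8 myotube markers were present, and their summed level was 4728 to 5825 CPM with vehicle and 2294 to 2481 CPM with TNF-alpha, with 7 fallen and Myog risen. Of 7 fibroblast markers 3 rose and 3 fell, and their sum was 2109 to 2649 CPM with vehicle and 6272 to 6508 CPM with TNF-alpha, of which Dcn, a proteoglycan gene, made up 2029 ± 265 and 6022 ± 200. Dpt went from 25.7 ± 0.556 to 0.540 ± 0.099 CPM, and Thy1 was under 0.05 CPM in each library. The 4 smooth muscle markers summed to 114 to 151 and 192 to 247 CPM (1 rose, 1 fell), with Myh11 and Cnn1 under 1 CPM throughout. Smtn made up 124 ± 19.3 and 219 ± 27.1 CPM of these sums. The 5 leukocyte markers summed to 5.29 to 5.52 and 20.8 to 22.5 CPM (2 rose, 0 fell), with Ptprc, Adgre1 and Itgam under 1 CPM. Cd68 made up 4.81 ± 0.0400 and 19.8 ± 0.738 CPM of these sums. The 4 endothelial markers summed to 2.49 to 3.63 and 1.32 to 1.59 CPM, the 5 of bone and cartilage to 2.87 to 3.399 and 2.34 to 2.63 CPM, and the 4 of fat to at most 0.299 CPM, with Lep at 0. The 5 myoblast markers summed to 568 to 826 and 568 to 609 CPM (1 rose, 3 fell), with Pax7 under 1 CPM throughout. Vcam1, which was not past the test, made up 272 ± 101 and 413 ± 20.4 CPM of these sums. Cdh15 fell from 335 ± 28.0 to 114 ± 23.5 CPM and Myod1 from 98.8 ± 11.2 to 51.3 ± 3.39 CPM. The part of any of these in the members' changes was not tested.

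The genes closest to the member with the largest rise and to the one with the largest fall were sought among 10521 genes with a mean of at least 5 CPM, by the distance between centred log2 CPM profiles over the 6 libraries. For P4ha2 they were Arrb1 (distance 0.256), Vwa1 (0.276) and Itpk1 (0.311), whose log2 fold changes were 2.43, 2.47 and 2.60. For Loxl1 they were Prr33 (0.129), Igfbp5 (0.138) and Sardh (0.193), at -1.41, -1.38 and -1.43. With 2 groups of 3 libraries, such likeness is mostly a like difference between the groups.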

How the data were processed

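Polyadenylated RNA of 6 constructs (3 vehicle, 3 TNF-alpha) went into stranded libraries that were read from both ends, per the labels' protocols. The authors deposited estimated counts per gene, judged from decimals in 20.15% to 20.97% of each library's values, although the series text speaks of integers. The tools were TopHat2 2.1.1, Bowtie2 2.3.5.1, featureCounts, Subread 2.0.0 and DESeq2, on mm10 and GRCm38, per the submitters' processing notes, which give no roles. Whether counting used strand is not given in the sources used here.

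Counts were rounded, where the plan had assumed whole counts. Genes were filtered with filterByExpr, scaled with TMM and fitted across the whole table with edgeR 4.0.16 (R 4.3.3; glmQLFit, robust, then glmQLFTest). The model held the group alone, with Benjamini-Hochberg adjustment over 15792 genes. Standard errors come from the F statistic. The pipeline was tested on simulated data. CPM used the same factors, and CPM per kilobase the joined exons of GENCODE M21 on GRCm38. Promoter windows come from RefSeq (GRCm38.p6). For shares and ratios the exact permutation test was used (two-sided, scipy 1.17.1), whose smallest p is 0.1.

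Replicates of a group differed beyond counting noise (chi-square per degree of freedom 22.0 to 66.9), so each library counted as its own replicate. The members and lists were chosen with earlier results of these data known. The genes named were all members, in each list the 2 genes of lowest p in the commoner direction and 1 in the other, and for 2 members the 3 genes closest in profile. Htra2, Plod3, Col1a1, Aldoa, Slc31a1, Fbln5, Car9, Tgfb1i1 and single markers were named after their values were seen. A gene that this rule names is not reported here. All 82 list entries were in the table and 79 were tested. Results were recomputed with 2 other scalings (median-ratio, upper-quartile), without the low-count filter or with at least 1 CPM required in a group, in DESeq2 1.42.0 and limma-voom (limma 3.58.1), with no robust estimation, the replicate number as a block, each library left out, and other lengths and collagen references.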

Additional observations from a re-analysis of the deposited data

How the results depend on the processing

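Under 14 alternatives, 9 of the 10 members kept their direction and stayed past the test, and Loxl2 kept its direction. The Loxl2 log2 fold change was 1.13 without the filter on low counts and 0.92 to 1.56 with 1 library left out. Leaving out 1 library gave 6 or 7 members risen and 3 fallen.

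With the replicate number as a block (replicate block), 7 members rose and 3 fell, and the Loxl2 log2 fold change was 1.22 (adjusted p = 0.0488). The same-numbered libraries did not deviate together (correlations of deviations 0.0428, -0.0454 and -0.114), so the numbers were not taken as pairs.

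Without length normalisation the share differences, in percentage points, were 29.2 for Lox, -21.5 for Loxl1, -7.69 for Loxl3, 0.215 for Loxl4, -20.5 for P4ha1, 22.4 for P4ha2 and -1.93 for P4ha3, and the lysyl oxidase ratio to type I collagen differed by 2.73 on the log2 scale. With the longest transcript they were -7.59 for Loxl3, -21.7 for P4ha1, 24.7 for P4ha2 and -3.05 for P4ha3, and the prolyl 4-hydroxylase ratio differed by 2.91. With 5 fibrillar chains as the reference the ratios differed by 1.49, 1.59 and 1.38. With Plod3 in the family, the Plod1 share differed by -3.48. The Loxl2 share difference ranged from -0.346 to 1.21 with 1 library left out. Of 196 list counts under alternatives, 3 moved by over 1.5 times, all the number of lysyl oxidase partners risen. Levels of genes that share reads with an overlapping gene depend on counting options, and 3 libraries per group limit precision more than depth does.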
